A study of Mus musculus with 8 samples.

Results

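β-Catenin is the protein through which the canonical Wnt signal reaches the nucleus, and 10 genes of its core were followed through normal prostate, prostatic intraepithelial neoplasia (PIN) and prostate cancer (PCa) of mice. They were chosen by symbol from the 27036 genes of the count table: *Ctnnb1*, which encodes β-catenin, *Apc*, *Axin1*, *Axin2* and *Gsk3b* of the complex that marks β-catenin for destruction, the receptors *Lgr4*, *Lgr5* and *Lgr6*, and the ubiquitin ligases *Rnf43* and *Znrf3*. All 10 were found, and 9 passed the filter on low counts, *Lgr6* being the exception. Bulk RNA-seq covered 3 libraries of WT prostate, 3 of PIN and 2 of PCa, and the labels place each library in its group. PIN and PCa came from hARtg-Osr1Cre mice, named *R26 mTmG/hAR:Osr1 Cre/+* in the study, in which Cre driven by *Osr1* turns on a human androgen receptor transgene together with membrane GFP in *Osr1*-lineage cells. The WT mice are given in the study as *R26 mTmG/+:Osr1 Cre/+*, so that Cre and the reporter are shared by all 3 groups, and the background was mixed from C57BL/6 and 129S1/SvImJ. WT mice were matched for age and sex, and the ages of these animals are not given in the sources used here. PIN and PCa tissues had been checked under the microscope and held mostly atypical or tumor cells, and a library holds the RNA of every cell in its tissue.

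Without a Wnt signal, AXIN and APC hold β-catenin beside the kinases GSK3 and CK1, which phosphorylate it, and the ubiquitin ligase adaptor β-TrCP then passes it to the proteasome. A Wnt ligand bound to Frizzled and LRP5 or LRP6 stops this, and β-catenin builds up and acts with TCF/LEF factors on target genes. RNF43 and ZNRF3 take Frizzled off the cell surface, while R-spondins bound to LGR4, LGR5 or LGR6 remove these ligases and so raise the response to Wnt. *Axin2*, *Lgr5*, *Rnf43* and *Znrf3* are also known as target genes of the pathway, which makes them common readouts of it, and *Lgr5* marks stem cells in several epithelia.

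Start-site sequences were compared for 6 of the 10 genes, with RefSeq promoters of GRCm38.p6. *Apc* was left out of this comparison, so its promoters were not tested, and *Axin1*, *Lgr5* and *Znrf3* had none in the set used. The 8 promoters compared hold 300 bases each, 250 before and 50 after the start. Those of *Axin2* and *Rnf43*, whose transcripts were high in one tumor, PCa 2, and low in the other, PCa 1, are shown beside that of *Lgr4*, low in PCa 2, on the plus strand of chr11:108920099-108920398, chr11:87662837-87663136 and chr2:109917397-109917696, with each CG dinucleotide in capitals.
Axin2: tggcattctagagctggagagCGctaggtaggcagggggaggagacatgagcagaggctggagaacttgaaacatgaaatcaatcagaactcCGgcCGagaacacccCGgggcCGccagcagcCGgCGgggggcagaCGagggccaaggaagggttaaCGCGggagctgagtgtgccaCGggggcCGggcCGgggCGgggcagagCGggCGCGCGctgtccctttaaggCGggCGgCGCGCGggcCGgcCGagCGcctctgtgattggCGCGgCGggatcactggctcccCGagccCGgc
Rnf43: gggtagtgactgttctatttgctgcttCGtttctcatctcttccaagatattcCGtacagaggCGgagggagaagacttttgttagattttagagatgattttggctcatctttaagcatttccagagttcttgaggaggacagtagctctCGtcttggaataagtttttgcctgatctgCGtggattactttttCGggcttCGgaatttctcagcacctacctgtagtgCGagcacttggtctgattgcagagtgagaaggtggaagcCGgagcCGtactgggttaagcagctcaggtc
Lgr4: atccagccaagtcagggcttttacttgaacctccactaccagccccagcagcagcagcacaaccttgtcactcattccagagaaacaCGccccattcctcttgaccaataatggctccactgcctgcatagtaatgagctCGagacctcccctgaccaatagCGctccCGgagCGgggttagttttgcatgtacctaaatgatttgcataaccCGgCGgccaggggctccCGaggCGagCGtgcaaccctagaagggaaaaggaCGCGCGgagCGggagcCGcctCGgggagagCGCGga
They hold 31, 10 and 18 CG dinucleotides, against a median of 7 over all 32851 promoters, and a second *Rnf43* promoter holds 3. The core letters bound by TCF/LEF factors, CTTTG or on the other strand CAAAG, occur in 0 of these 3 windows and in 1 of the 8 (*Gsk3b*), while 53.9% of all promoters hold them. This describes the letters in these windows alone.

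The total count on genes ran from 21751803 to 29730420 per library, and levels are given as CPM, counts scaled to library size after normalization by TMM, the trimmed mean of M-values. Luminal keratin and adhesion genes were present in all 8 libraries, with a summed level of 1751 to 7594 CPM over 5 genes, highest in WT 2. Other markers set libraries apart. The summed level of 6 smooth muscle genes was 2021 to 5859 CPM in WT and PIN but 42.5 in PCa 1 and 19.8 in PCa 2. The androgen-regulated secretory gene *Pbsn* stood at 6552 CPM or more in WT and PIN, 8.53 in PCa 1 and 60.8 in PCa 2. *Fkbp5*, from the same list of 5 genes and also androgen-regulated, went the other way, at 52.0 to 454 CPM in WT and PIN, 1093 in PCa 1 and 236 in PCa 2. Seminal vesicle genes summed to 14563 CPM in WT 1 and 3730 in PCa 1, against 0.0453 to 285 in the other libraries. PCa 1 had the highest leukocyte sum (372 CPM over 6 genes, against 29.6 to 121 elsewhere), and PCa 2 the lowest basal keratin and *Trp63* sum (27.4 CPM over 4 genes, against 167 to 604). In PCa 2 *Trp63* itself was at 21.3 CPM, not far under the 25.5 to 42.9 of WT and PIN. *Krt5*, *Krt14* and *Krt15* were at 4.70, 0.309 and 1.13 CPM there, against 12.4 CPM or more in WT and PIN. The 4 proliferation genes summed to 407 CPM in PCa 1 and 499 in PCa 2, against 49.7 to 108 in WT and PIN. The part of these markers in the results was not tested, and in bulk tissue fewer cells of a type and less RNA per cell cannot be told apart. The library numbers of the labels form 3 series, WT 1, then WT 2 and WT 3, then PIN with PCa, so that series and group cannot be told apart in comparisons with WT.

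Per length, β-catenin was by far the most abundant of the 10 transcripts. In TPM, counts divided by exon length and scaled to the same sum in each library, the scale on which genes of different length can be compared, *Ctnnb1* was at 296 ± 16.3 in WT (SD, n = 3). *Axin2* at 71.7 ± 15.2 and *Gsk3b* at 66.1 ± 10.2 TPM came next, with ranges that overlapped. Both lay above *Axin1* (41.2 ± 9.04), *Apc* (37.4 ± 9.80) and *Lgr4* (32.2 ± 1.899), whose neighbours in that order overlapped. *Znrf3* (23.5 ± 10.6), *Rnf43* (19.1 ± 6.22) and *Lgr5* (12.96 ± 3.51 TPM) overlapped in turn. *Lgr6* closed the order at 0 to 0.372 TPM. In PIN the mean levels ran from 303 TPM for *Ctnnb1* to 0.0322 for *Lgr6*, and the first 3 genes and the last 4 kept their places.

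The 2 tumors did not share an order. In PCa 1 *Gsk3b* (84.8 TPM) and *Lgr4* (49.6 TPM) followed *Ctnnb1* (549 TPM), and *Lgr5* was at 0.0478 TPM. In PCa 2 *Axin2* (491 TPM) and *Znrf3* (377 TPM) followed *Ctnnb1* (968 TPM), then *Rnf43* (126 TPM) and *Lgr5* (124 TPM), while *Lgr4* was at 6.70 TPM. The TPM of 1 gene should not be set between libraries here, since *Pbsn* alone took 66337 TPM in WT 2 and 267 TPM in PCa 2, so CPM is used for that below.

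**Figure D1:**
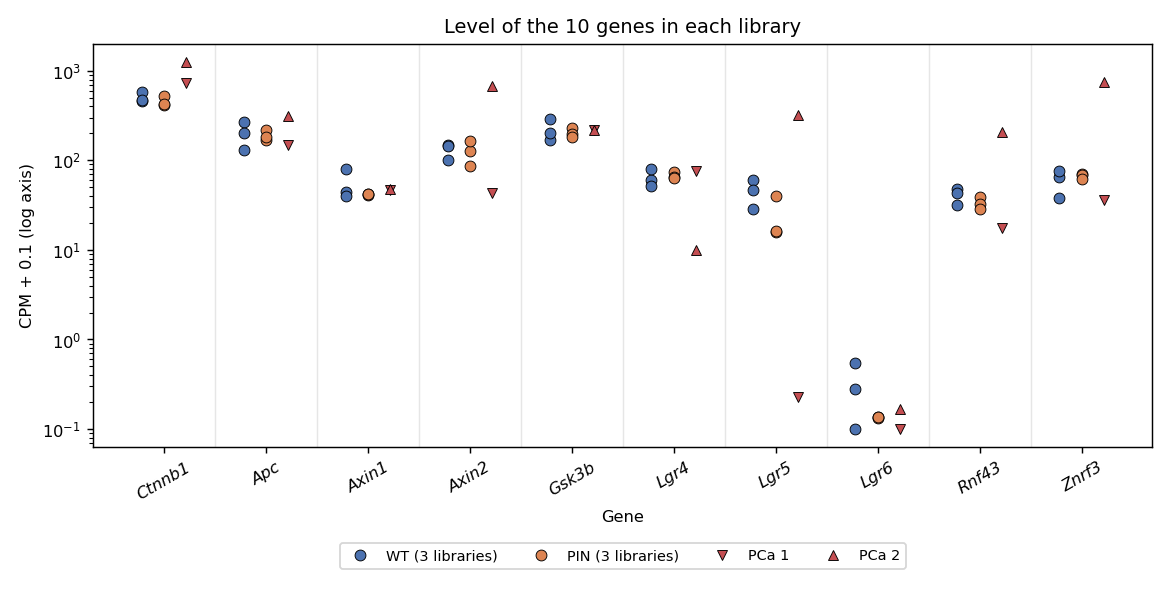
CPM plus 0.1 on a log axis for the 10 genes, with 1 point per library and no error bars; the 3 WT and 3 PIN libraries are circles, PCa 1 a downward and PCa 2 an upward triangle. PCa 1 lies below and PCa 2 above all WT and PIN libraries for Axin2, Lgr5, Rnf43 and Znrf3, while Lgr4 is low in PCa 2 alone (9.94 CPM). For Znrf3, PCa 1 is only just below WT 2 (36.5 against 37.5 CPM).

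*Ctnnb1* (ENSMUSG00000006932, chromosome 9 of mm9, 120838334 to 120869625, plus strand) was at 463, 582 and 474 CPM in WT 1 to 3. PIN 1 to 3 held 522, 414 and 427 CPM. PCa 1 held 733 and PCa 2 held 1244 CPM. Both tumors lay above all 6 other libraries, the only case of this among the 9 genes tested, and an arrangement that 13.4% of all 14034 tested genes showed. The log2 fold change was 0.97 in PCa against WT (standard error 0.30, adjusted p = 0.0876) and 1.12 against PIN (standard error 0.30, adjusted p = 0.0723, both from the edgeR quasi-likelihood F-test after Benjamini-Hochberg adjustment). *Ctnnb1* thus missed the limit on the adjusted p of 0.05 in both comparisons. DESeq2 gave adjusted p = 0.00971 against WT, where its log2 fold change of 0.99 was under the limit of 1, and called the gene against PIN (1.13, adjusted p = 0.00269). With PCa 2 as the only tumor the log2 fold change over WT was 1.31 (adjusted p = 0.0222), and with PCa 1 alone it was 0.55 (adjusted p = 0.274, same test). Such fits with 1 tumor assume that it varies like the WT and PIN libraries.

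Within the destruction complex, *Axin1* and *Gsk3b* were nearly equal in the 2 tumors, while *Apc* and above all *Axin2* were higher in PCa 2. *Apc* (ENSMUSG00000005871, chromosome 18 of mm9, 34380578 to 34481843, plus strand), a scaffold that binds β-catenin, was at 129, 269 and 202 CPM in WT, 216, 170 and 181 in PIN, 149 in PCa 1 and 312 in PCa 2. PCa 2 was the highest *Apc* library and PCa 1 lay inside the range of WT and PIN, so the groups overlapped. Its log2 fold change in PCa against WT was 0.20 with a standard error of 0.39 (adjusted p = 0.779 from the edgeR quasi-likelihood F-test after Benjamini-Hochberg adjustment), turning to -0.03 without WT 1 and to -0.41 without PCa 2. *Axin1* (ENSMUSG00000024182, chromosome 17, 26275631 to 26332756, plus strand), the constitutive AXIN scaffold, was at 44.3, 79.1 and 39.8 CPM in WT, 41.1, 41.5 and 41.8 in PIN, 46.2 in PCa 1 and 47.4 in PCa 2. WT 2 stood apart as the highest *Axin1* library, and without it the log2 fold change of PCa over WT was 0.15 in place of -0.22. *Gsk3b* (ENSMUSG00000022812, chromosome 16, 38089087 to 38246170, plus strand), which phosphorylates β-catenin, was at 169, 290 and 204 CPM in WT, 228, 199 and 184 in PIN, 219 in PCa 1 and 221 in PCa 2. The tumors differed in *Gsk3b* by a factor of 1.01 and both lay inside the range of the other libraries. Its log2 fold change was -0.01 in PCa against WT and 0.11 against PIN, each with a standard error of 0.27, and the first changed sign under some settings without nearing the thresholds.

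*Axin2* (ENSMUSG00000000142, chromosome 11 of mm9, 108781663 to 108812097, plus strand) is the AXIN scaffold that the pathway itself induces as a brake. It was at 101, 150.3 and 144 CPM in WT and at 128, 164 and 85.5 CPM in PIN. PCa 1 held 42.7 CPM, below every other library, and PCa 2 held 681 CPM, above every other library. The tumors were 16.0-fold apart (95% interval 15.1 to 16.9, counting error only, from 1326 and 19864 counts). The log2 fold change in PCa against WT was 1.46 with a standard error of 0.87 (adjusted p = 0.322), and against PIN it was 1.53 with a standard error of 0.87 (adjusted p = 0.344, both from the edgeR quasi-likelihood F-test after Benjamini-Hochberg adjustment). Neither describes a tumor, since the tumors lie on opposite sides of WT and PIN. With PCa 2 as the only tumor the value over WT was 2.38 (adjusted p = 0.00681), and with PCa 1 alone it was -1.61 (adjusted p = 0.0625, same test). Set against *Axin1* within each library, a ratio of TPM that no library scaling can move, *Axin2* was 1.32 to 2.51 times as abundant in WT and 1.42 to 2.74 times in PIN. In PCa 1 the ratio was 0.643, and in PCa 2 it was 9.998.

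**Figure D2:**
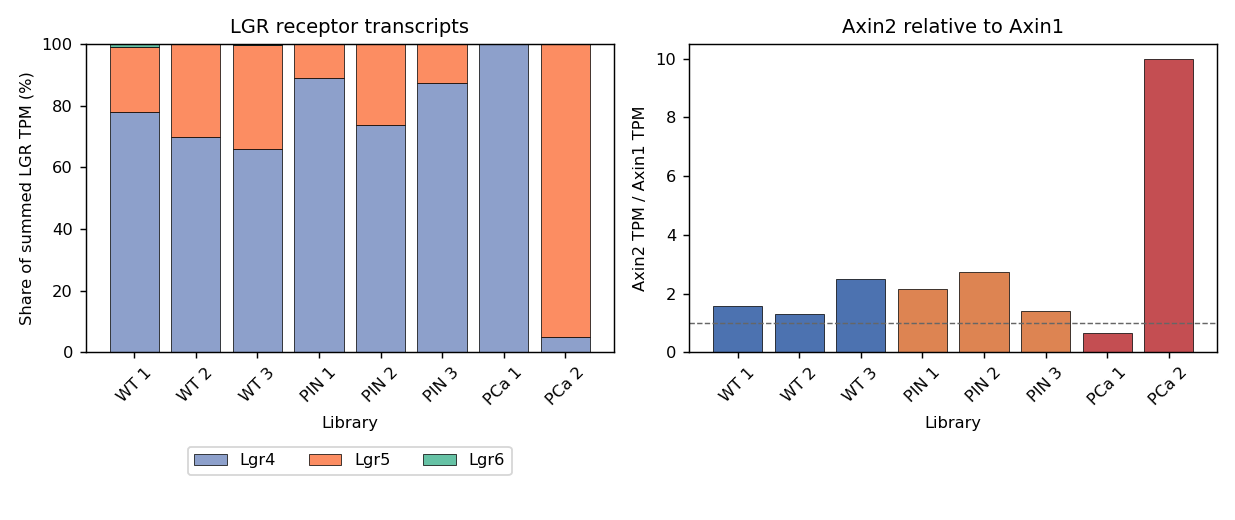
Left, the share in % of Lgr4, Lgr5 and Lgr6 in their summed TPM in each of the 8 libraries; right, Axin2 TPM divided by Axin1 TPM, with a dashed line at 1 and bars coloured by group. Lgr4 makes up 99.9% of the receptor transcripts in PCa 1 and Lgr5 94.8% in PCa 2, and the Axin2 to Axin1 ratio is 0.643 and 9.998 in these libraries.

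Of the receptors for R-spondin, *Lgr4* was the main transcript in normal tissue. *Lgr4* (ENSMUSG00000050199, chromosome 2 of mm9, 109757804 to 109854414, plus strand), the most widely expressed of the 3, was at 61.1, 79.3 and 52.2 CPM in WT and at 75.0, 64.7 and 63.4 CPM in PIN. PCa 1, at 76.5 CPM, was inside that range, while PCa 2, at 9.94 CPM, was below every other library. The log2 fold change in PCa against WT was -0.57 with a standard error of 0.69 (adjusted p = 0.636 from the edgeR quasi-likelihood F-test after Benjamini-Hochberg adjustment). With PCa 2 as the only tumor it was -2.68 (adjusted p = 0.00329), and with PCa 1 alone 0.27 (adjusted p = 0.572, same test).

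*Lgr5* (ENSMUSG00000020140, chromosome 10 of mm9, 114887367 to 115024836, minus strand), the receptor known as a stem cell marker, varied most. WT 1 to 3 held 28.9, 60.0 and 46.5 CPM, from 584, 1324 and 1271 counts. PIN 1 to 3 held 15.9, 40.0 and 16.0 CPM, so that PIN 1 and PIN 3 were below all WT libraries and PIN 2 was inside their range. PCa 1 had 4 counts in all, or 0.129 CPM, and PCa 2 had 9372 counts, or 321 CPM. The pooled WT libraries were 355-fold above PCa 1 (95% interval 138 to 1303) and the pooled PIN libraries 189-fold (73.7 to 694), counting error only. The fitted log2 fold change of 1.83 in PCa against WT had a standard error of 1.67 (adjusted p = 0.523 from the edgeR quasi-likelihood F-test after Benjamini-Hochberg adjustment). It is an average over tumors that lie far to either side, and limma-trend, which averages log values, gave -2.42. Each tumor on its own passed the thresholds against WT with the edgeR quasi-likelihood F-test after Benjamini-Hochberg adjustment, PCa 2 upward at 2.84 (adjusted p = 0.0143) and PCa 1 downward at -8.39 (adjusted p = 0.00872). Against PIN the values were 3.76 (adjusted p = 0.00625) and -7.47 (adjusted p = 0.0128, same test).

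*Lgr6* (ENSMUSG00000042793, chromosome 1 of mm9, 136882925 to 137001853, minus strand) had 0 to 9 counts per library and was not tested. The highest level was 0.445 CPM, in WT 1, and 0 counts were found in WT 2 and PCa 1. As shares of the summed TPM of the 3 receptors, *Lgr4* made up 78.0, 69.7 and 65.9% in WT and 89.1, 73.8 and 87.3% in PIN. Its share was 99.9% in PCa 1 and 5.12% in PCa 2, where *Lgr5* made up 94.8%.

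Both ligases, like *Axin2*, were lowest in PCa 1 and highest in PCa 2. *Rnf43* (ENSMUSG00000034177, chromosome 11 of mm9, 87476224 to 87549041, plus strand) was at 47.6, 31.4 and 43.4 CPM in WT and at 39.3, 32.9 and 28.5 CPM in PIN. PCa 1 held 17.4 CPM and PCa 2 held 208 CPM, which is 11.96-fold more (95% interval 10.9 to 13.1, counting error only). *Znrf3* (ENSMUSG00000041961, chromosome 11, 5176327 to 5344850, minus strand) was at 64.7, 37.5 and 75.8 CPM in WT and at 71.0, 69.1 and 61.6 CPM in PIN. PCa 1, at 36.5 CPM, was just under WT 2, and PCa 2, at 750 CPM, was 20.6-fold above PCa 1 (95% interval 19.4 to 21.8, counting error only). The log2 fold change in PCa against WT was 1.46 for *Rnf43* (standard error 0.78, adjusted p = 0.270) and 2.73 for *Znrf3* (standard error 0.94, adjusted p = 0.111, both from the edgeR quasi-likelihood F-test after Benjamini-Hochberg adjustment). *Znrf3* passed the thresholds with DESeq2 (2.75, adjusted p = 0.0137). With PCa 2 as the only tumor the values were 2.36 for *Rnf43* (adjusted p = 0.00288) and 3.67 for *Znrf3* (adjusted p = 0.00165), and with PCa 1 alone they were -1.22 (adjusted p = 0.0695) and -0.69 (adjusted p = 0.305, all from the edgeR quasi-likelihood F-test after Benjamini-Hochberg adjustment). The summed TPM of both ligases was 0.494 to 1.21 times that of the LGR receptors in WT and PIN, 0.559 times in PCa 1 and 3.84 times in PCa 2.

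Counted over the 9 genes tested, PCa 2 lay above all WT and PIN libraries for 6 and PCa 1 below them for 4. Over all tested genes these shares were 27.9% and 27.5%. For 4 genes, *Axin2*, *Lgr5*, *Rnf43* and *Znrf3*, PCa 2 lay above and PCa 1 below, an arrangement of 3.79% of all tested genes. The opposite arrangement, held by 5.21% of all tested genes, was found for 0 of the 9. The tumors were at least 4-fold apart, on CPM plus 0.5, for 5 of the 9 (these 4 and *Lgr4*) and for 14.4% of all tested genes. These counts compare single libraries and carry no test, and for *Znrf3* PCa 1 lay only just below WT 2 (36.5 against 37.5 CPM).

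Between PIN and WT the question was whether these genes already differed in lesions that were not yet cancer. 0 of the 9 genes tested passed the thresholds (a log2 fold change of more than 1 in either direction with an adjusted p under 0.05), 0 had an unadjusted p under 0.05, and DESeq2 and limma-trend also called 0. Over all tested genes, edgeR and limma-trend each called 0% in this comparison and DESeq2 called 0.278%. The share of all tested genes with an unadjusted p under 0.05 was not counted. The log2 fold changes ran from -0.91 for *Lgr5* (standard error 1.53) to 0.18 for *Znrf3* (standard error 0.84), with a median of -0.12 beside -0.02 over all tested genes. All 9 had PIN and WT ranges that overlapped. The share of all tested genes with such overlap was not counted, so this is not shown to be particular to the 9. *Gsk3b* had the smallest standard error, 0.24 around -0.12, and *Lgr5* the largest.

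In PCa, the thresholds called 0 of the 9 genes against WT and 0 against PIN with the edgeR quasi-likelihood F-test after Benjamini-Hochberg adjustment, where 8.54% and 5.72% of all tested genes were called. At an unadjusted p under 0.05, *Ctnnb1* and *Znrf3* passed in both comparisons, and the share of all tested genes at this limit was not counted. DESeq2 called 1 gene against WT (*Znrf3*) and 2 against PIN (*Ctnnb1* and *Znrf3*), where it called 17.7% and 14.1% of all tested genes. The median log2 fold change of the 9 was 0.97 against WT and 1.12 against PIN, with 0.01 and 0.07 over all tested genes. Both medians are that of *Ctnnb1*, and both comparisons use the same tumors. With PCa 2 as the only tumor, 6 genes were called against WT and the same number against PIN, *Ctnnb1*, *Axin2*, *Lgr5*, *Rnf43* and *Znrf3* upward and *Lgr4* downward, and with PCa 1 alone only *Lgr5* was called, downward, in each comparison. Over all genes, the fits with PCa 2 alone called 18.2% against WT and 16.6% against PIN, and those with PCa 1 alone 10.1% and 7.05%. With any 1 WT or PIN library left out, WT 1 with its seminal vesicle transcripts and WT 2 included, 0 of the 9 were called in any of the 3 comparisons, in fits that called 0% of all genes in PIN against WT, 2.48 to 7.3% in PCa against WT and 0.557 to 7.81% in PCa against PIN.

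**Figure D3:**
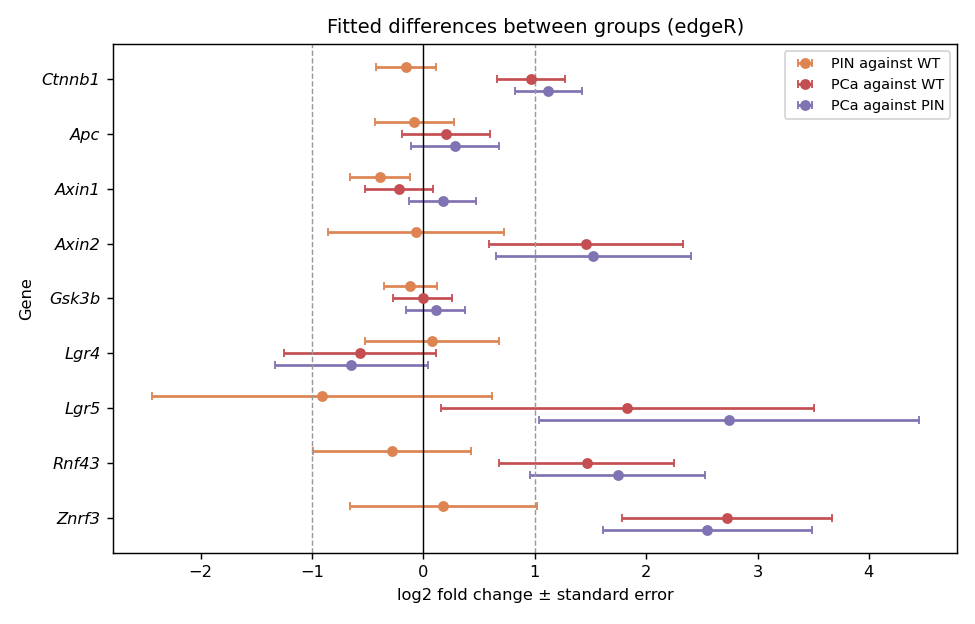
Fitted log2 fold change (point) with its standard error (bar) from edgeR for the 9 genes tested, with PIN and PCa each set against WT, and PCa also against PIN; dashed lines mark the limit of 1 in either direction. Bars are short for Gsk3b (0.24 to 0.27) and long for Lgr5 (1.53 to 1.71), and no gene passed both thresholds.

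Other parts of the pathway were read from a list of 41 genes, 39 of which were tested. In PCa 5 of the 39 were called against WT, beside 8.54% of all tested genes, and 5 against PIN, beside 5.72%, and 0 in PIN against WT, where 1 had an unadjusted p under 0.05 and DESeq2 and limma-trend called 0. How many of all tested genes passed that unadjusted limit was not counted. *Rspo2* and *Rspo3*, which encode R-spondins, the ligands of the LGR receptors, fell, while *Rspo1*, *Lrp5* and *Lrp6* passed in neither comparison. *Rspo3* was at 23.4, 11.9 and 31.4 CPM in WT, 28.8, 34.4 and 38.7 in PIN, 1.80 in PCa 1 and 0.103 in PCa 2. It fell by 4.53 on the log2 scale against WT (standard error 1.02, adjusted p = 0.0363) and fell by 5.14 against PIN (standard error 1.05, adjusted p = 0.0350, both from the edgeR quasi-likelihood F-test after Benjamini-Hochberg adjustment). *Rspo2* was at 1.95 to 6.58 CPM in WT and 3.93 to 12.3 in PIN, while PCa 1 had 1 count and PCa 2 had 0. It was called lower against WT (adjusted p = 0.0118) and PIN (adjusted p = 0.0133, same test), and pooled WT was 273-fold above pooled PCa (95% interval 48.6 to 10800, counting error only). The smooth muscle markers given above were also lower in both tumors by a wide margin, and their part in the R-spondin values was not tested.

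Within the cell, *Btrc*, which encodes β-TrCP, was called lower in both comparisons and *Csnk1e*, a CK1 kinase, higher against PIN. *Btrc* was at 32.8 to 43.4 CPM in WT, 44.2 to 48.9 in PIN, 21.8 in PCa 1 and 15.2 in PCa 2. It fell by 1.10 on the log2 scale against WT (standard error 0.24, adjusted p = 0.0345) and fell by 1.32 against PIN (standard error 0.25, adjusted p = 0.0291, both from the edgeR quasi-likelihood F-test after Benjamini-Hochberg adjustment). *Csnk1e* was at 17.2 to 30.6 CPM in WT, 17.1 to 24.2 in PIN, 46.4 in PCa 1 and 55.3 in PCa 2, and its rise of 1.29 on the log2 scale against PIN passed (standard error 0.29, adjusted p = 0.0458, same test), while its value of 1.14 against WT did not (adjusted p = 0.0513, same test). The other 13 genes of this group, among them *Dvl1*, *Dvl2*, *Tnks* and *Csnk1a1*, passed in neither comparison, nor did any of the 8 partners of β-catenin in the nucleus and at junctions.

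Among 12 feedback and target genes, 11 of them tested, 2 were called against WT, beside 8.54% of all tested genes. *Notum*, a secreted enzyme that inactivates Wnt ligands, was at 1.04 to 3.26 CPM in WT, 2.71 to 3.31 in PIN, 12.5 in PCa 1 and 150.2 in PCa 2. It rose by 5.10 on the log2 scale against WT and by 4.74 against PIN (adjusted p = 0.0228 and 0.0334 from the edgeR quasi-likelihood F-test after Benjamini-Hochberg adjustment). *Apcdd1*, a membrane inhibitor of Wnt signaling, was at 3.44 to 26.1 CPM in WT, 25.5 to 33.6 in PIN, 48.3 in PCa 1 and 1215 in PCa 2, and it rose by 5.39 against WT (adjusted p = 0.0412, same test), while its value of 4.35 against PIN did not pass (adjusted p = 0.0800, same test). PCa 2 lay above all WT and PIN libraries for 9 of the 11 target genes, and for 27.9% of all tested genes. PCa 1 lay above them for 6 (*Nkd2*, *Notum*, *Apcdd1*, *Ccnd1*, *Cd44* and *Sox9*) and below them for 4 (*Nkd1*, *Tcf7*, *Lef1* and *Sp5*), beside 27.8% and 27.5% of all tested genes. *Sp5*, a target of β-catenin in many tissues, was at 0.0322 CPM in PCa 1, against 6.93 to 17.1 in WT and PIN and 16.2 in PCa 2. *Myc*, a target that drives growth, was at 57.9 to 67.1 CPM in WT, 42.0 to 59.6 in PIN, 45.6 in PCa 1 and 73.8 in PCa 2, with a log2 fold change of -0.04 in PCa against WT (standard error 0.26, adjusted p = 0.943, same test). *Ascl2*, the target gene that was not tested, had 0 to 12 counts per library. The tumors were at least 4-fold apart for 8 of the 11 and for 14.4% of all tested genes.

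**Figure D4:**
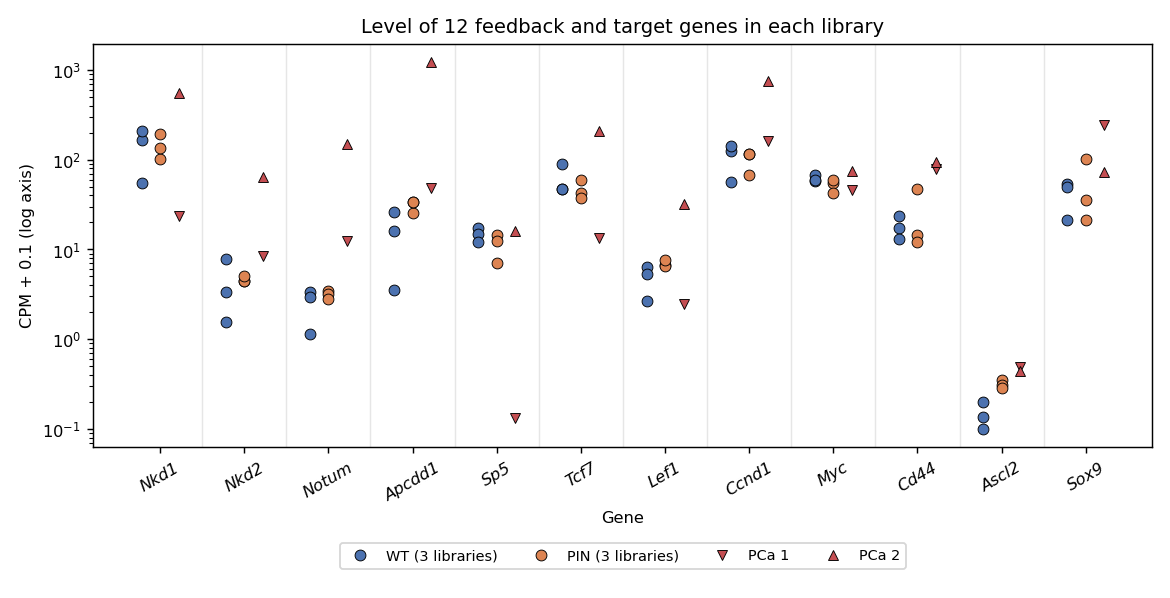
CPM plus 0.1 on a log axis for the 12 feedback and target genes, 1 point per library with no error bars and the symbols of the plot of the 10 core genes. PCa 2 is above all WT and PIN libraries for 9 of the 11 genes tested, while PCa 1 is above them for 6 and below them for 4.

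The calls of these 6 genes depended on the model and on single libraries to different degrees. A replicate block left only *Rspo2* called against WT and against PIN, beside 2.94% and 1.08% of all tested genes. With only the 2 groups compared in the model, 0 of the 39 genes were called against WT, *Rspo2* included (adjusted p = 0.0641), and *Rspo2* alone against PIN (adjusted p = 0.0427, both from the edgeR quasi-likelihood F-test after Benjamini-Hochberg adjustment), where 0.952% and 2.81% of all genes were called. Against WT, *Btrc* also lost its call with upper-quartile scaling (adjusted p = 0.0591 from the same edgeR test) and *Apcdd1* with limma-trend (adjusted p = 0.0719). Against PIN, *Notum* lost it with limma-trend (adjusted p = 0.0559) and *Csnk1e* with no filter on low counts (adjusted p = 0.0655) or with the filterByExpr filter (adjusted p = 0.0520, both from the same edgeR test). *Csnk1e* and *Cd44* gained a call against WT with upper-quartile scaling, DESeq2, limma-trend and the newer quasi-likelihood method. These fits called 7.9 to 17.7% of all tested genes against WT. With 1 library left out at a time, *Rspo2* was called in 8 of 8 fits against WT and 7 of 8 against PIN (adjusted p = 0.0548 without PIN 3 from the edgeR quasi-likelihood F-test after Benjamini-Hochberg adjustment). Against WT, *Rspo3* lost its call without WT 1, WT 3 or any PIN library (adjusted p up to 0.0959), *Btrc* without these or PCa 2 (up to 0.103), *Notum* without any WT library or PIN 3 (up to 0.0812), and *Apcdd1* without any library other than PCa 1 (up to 0.218, all from the edgeR quasi-likelihood F-test after Benjamini-Hochberg adjustment). Against PIN, *Rspo3* lost its call without WT 1, WT 3 or any PIN library (adjusted p up to 0.122), *Btrc* without WT 3, any PIN library or PCa 2 (up to 0.110), and *Notum* and *Csnk1e* without any library other than WT 2 and PCa 1 (up to 0.139 and 0.179, same test). With PCa 1 as the only tumor the log2 fold change over WT was 2.41 for *Notum* and 1.69 for *Apcdd1*, against 5.99 and 6.34 with PCa 2 alone. For *Rspo3* it was -3.61 with PCa 1 alone and -7.68 with PCa 2 alone.

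For each gene, the tested genes most like it were sought by the root mean square difference of log2 profiles over the 8 libraries, each profile centred on its own mean. *Ctnnb1* was closest to *Ppm1d* (0.0762 on the log2 scale), *Tmpo* (0.103) and *5830428H23Rik* (0.104). The nearest to *Apc* were *Sbno1* (0.0952), *Trappc8* (0.1015) and *Socs4* (0.107), to *Axin1* *Rab35* (0.0739), *Fhl3* (0.0770) and *Ubxn1* (0.0837), and to *Gsk3b* *Vcpip1* (0.0612), *Kdm2a* (0.0665) and *Capza2* (0.0689). *Axin2* was closest to *Nup62cl* (0.264), *Sntb1* (0.291) and *Mal* (0.301), and *Sntb1* was also the gene closest to *Rnf43* (0.251), before *Sall3* (0.281) and *Gm15053* (0.292). *Sorbs2* was the closest to *Znrf3* (0.178), with *Bambi* (0.288) also near, and stood at 84.3 to 192 CPM in WT and PIN, 96.7 in PCa 1 and 1551 in PCa 2. *Lgr4* was closest to *Pfn2* (0.169), *Fam164a* (0.210) and *Lrrn4cl* (0.219), and *Pfn2* was at 12.005 to 20.1 CPM in WT and PIN, 20.6 in PCa 1 and 1.23 in PCa 2. *Lgr5* had no close match, its nearest being *Mt3* at 0.807, *Tex15* at 0.841 and *Tspan12* at 0.847. *Tspan12*, a partner of Frizzled 4, was at 70.8 to 133 CPM in WT and PIN, 14.9 in PCa 1 and 720.1 in PCa 2. Among the 9 themselves the nearest pairs were *Axin1* with *Gsk3b* (0.186), *Apc* with *Gsk3b* (0.288), *Apc* with *Axin1* (0.370), *Axin2* with *Rnf43* (0.391) and *Apc* with *Ctnnb1* (0.415), and the farthest was *Lgr4* with *Lgr5* (2.83). The profiles share the same 8 libraries and their depth, and the distances are given as a description.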

How the data were processed

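Libraries of 8 mouse prostate tissues, depleted of ribosomal RNA, were read from both ends. Per the labels, the authors trimmed reads with cutadapt 1.9.1, aligned them to mm9 with HISAT2 2.1.0 and counted them with HTSeq 0.6.1. The deposited values are raw counts per gene with summed exon lengths, and the strand setting of the counting is not given in the sources used here, so reads of overlapping genes on opposite strands may not be told apart. The human transgene is not a row of the table used here. Gene spans equal those of GENCODE vM1 on NCBIM37 for all 10 genes.

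Counts were fitted with edgeR 4.0.16 (R 4.3.3, quasi-likelihood test) in 1 model of 3 groups, on the 14034 genes that exceeded 1 CPM in 2 or more libraries. The study's methods name this test with TPM as input, whereas raw counts were tested here. The p-values were adjusted over all tested genes with the Benjamini-Hochberg method, and calls needed a log2 fold change of more than 1 in either direction with an adjusted p under 0.05. With 5 residual degrees of freedom, the common biological coefficient of variation was 0.489. The standard error is the log2 fold change divided by the square root of F. TPM was computed from counts and exon length. Intervals of count ratios are exact 95% conditional binomial intervals. Labels give each library its own number without naming the animals, so p-values measure the spread between these samples. The members, gene lists and tests were chosen with earlier results of these data known. Named are all 10 members, listed pathway genes that were called, the feedback and target genes and the 3 tested genes closest to each member (1 of them is not reported here), with a few uncalled pathway genes as examples chosen after their values were seen. *Amer1* is *Fam123b* in the table. Alternatives were upper-quartile and relative log expression scaling, leaving out the 5 most abundant genes, DESeq2 1.42.0, limma-trend (3.58.1), the newer quasi-likelihood method, other filters, models of 2 groups, a replicate block, and leaving out each library.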

Additional observations from a re-analysis of the deposited data

How the results depend on the processing

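Of 370 alternative values of single genes that kept every library, 337 kept their direction and call, 8 reversed, 22 lost and 3 gained a call, and of 296 with 1 library left out these numbers were 214, 25, 45 and 12. DESeq2 called 1 core gene against WT and 2 against PIN, and 10 and 9 of the 39 pathway genes, beside 17.7% and 14.1% of all tested genes. With only the groups compared in the model, 0 pathway genes were called against WT and 1 against PIN (*Rspo2*). With 1 library left out, 0 to 6 core genes were called in each PCa comparison, and 1 to 13 pathway genes against WT and 0 to 11 against PIN; the 6 core genes came without PCa 1, and without PCa 2 there was 1, beside 18.2% and 16.6%, and 10.1% and 7.05%, of all genes called against WT and PIN. *Lgr5* reversed with limma-trend, to -2.42 against WT and -1.43 against PIN. *Gsk3b* in PCa against WT turned to 0.041 with upper-quartile scaling, 0.0091 with relative log expression scaling and with DESeq2, and 0.029 with limma-trend, and *Axin2* in PIN against WT to 0.0039 with upper-quartile scaling. The cause was not tested.

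Whether replicate numbers pair the samples was not settled by the deviations of libraries from their group means. Deviations of same-numbered libraries correlated at -0.0389 to 0.265 over 7 pairs and those of different numbers at -0.265 to 0.168. Deviations of the 2 PCa libraries mirror each other, so each correlation with PCa 1 recurs for PCa 2 with the opposite sign, which ties the ranges together. With a replicate block, 0 core genes were called in any comparison, 1 pathway gene was called against WT and 1 against PIN (*Rspo2* in both), beside 2.94% and 1.08% of all genes and 0% in PIN against WT, and *Apc* in PIN against WT turned to 0.0092.

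Leaving out 1 library moved log2 fold changes across 0 as follows. In PIN against WT, *Apc* ran from -0.32 to 0.19, *Axin2* from -0.31 to 0.14, *Gsk3b* from -0.28 to 0.13, *Lgr4* from -0.051 to 0.26 and *Znrf3* from -0.064 to 0.40. In PCa against WT, *Apc* ran from -0.41 to 0.65, *Axin1* from -0.40 to 0.15, *Axin2* from -1.61 to 2.38, *Gsk3b* from -0.17 to 0.24, *Lgr4* from -2.68 to 0.27, *Lgr5* from -8.39 to 2.84, *Rnf43* from -1.22 to 2.36 and *Znrf3* from -0.69 to 3.67. In PCa against PIN, *Apc* ran from -0.32 to 0.74, *Axin2* from -1.54 to 2.45, *Lgr4* from -2.75 to 0.20, *Lgr5* from -7.47 to 3.76, *Rnf43* from -0.93 to 2.64 and *Znrf3* from -0.86 to 3.49. For *Axin2*, *Lgr4*, *Lgr5*, *Rnf43* and *Znrf3* in PCa, one end of each range is PCa 1 alone and the other PCa 2 alone. *Lgr6* could not be tested at 0 to 9 counts per library.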
